A study of Mus musculus with 12 samples.

Results

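XY gonads made to express FOXL2 were compared with normal ovaries of the same age, to list which autosomal genes still set the transgenic XY gonad apart from the ovary. The members were the 4 arrays titled XY FOXL2 and the 4 titled XX Control, 8 of the 12 arrays of the series, read over 28755 genes on chromosomes 1 to 19. All were fetal gonads at 14.5 days post coitum on a mixed 129Sv and C57Bl/6J background, and each array held the RNA of 1 pair of gonads from 1 embryo, freed of the mesonephros. The XX controls were Rosa26+/+ with Sf1-Cre+/Tg. The XY FOXL2+ gonads carried the transgene allele Rosa26-CAG-LSL-Foxl2+/f together with Sf1-cre+/Tg. The third group, 4 XY controls that were Rosa26+/+ with Sf1-Cre+/Tg, is given beside the comparison. Its arrays also enter the estimate of the spread on which the p-values rest. Every embryo thus carried the Sf1-cre transgene, also the controls. Cre removes the stop cassette (LSL) in front of Foxl2, so the CAG promoter drives the transgene in cells of the Sf1 lineage and in their descendants, which in the gonad are somatic cells and not germ cells. The sources used here do not give litter, day or batch, so p-values measure the spread between these embryos. RNA came from whole gonads, in which fewer cells of a type and less RNA per cell cannot be told apart.

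The fetal gonad starts as a primordium that can follow either course. In the XY gonad SRY and then SOX9 direct supporting cells to become Sertoli cells, which form cords, secrete AMH and, through desert hedgehog, support the fetal Leydig cells that make androgens. In the XX gonad RSPO1 and WNT4 act through beta-catenin, and FOXL2, a forkhead transcription factor, marks the granulosa cells and opposes the Sertoli programme. Germ cells of the fetal ovary enter meiosis in response to signals from the gonad, whereas those of the fetal testis stop dividing without entering it.

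Xist and the Y-linked genes fitted the labels. Xist, the RNA that coats the inactive X, averaged 16.27 on the XX control arrays and read 6.36, 6.35, 6.80 and 7.87 on the 4 XY FOXL2+ arrays, in replicate order here and throughout, on the log2 scale of the deposited signal. Uty, Kdm5d and Eif2s3y, which lie on the Y chromosome, averaged 11.14, 10.54 and 11.10 in XY FOXL2+ and 6.24, 6.27 and 5.99 in XX controls. Of X-linked genes, Kdm5c averaged 11.08 in XY FOXL2+ and 11.76 in XX controls. Kdm6a read 11.60, 12.14, 11.51 and 11.46 in XY FOXL2+ and 12.79 to 12.93 in XX controls. Its XY control mean was 11.44, so replicate 2 lay between the controls for Kdm6a. An autosomal gene had a median SD of 0.145 in XY FOXL2+ and 0.099 in XX controls (n = 4 each). Among the Sertoli genes listed below it was 0.57 in XY FOXL2+ and 0.13 in XX controls, and among the fetal granulosa genes 0.67 and 0.15. The standard errors and p-values below rest on 1 spread shared by the 3 groups. For genes that vary more between transgenic arrays, they understate the spread of the XY FOXL2+ gonads.

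Of the 28755 autosomal genes, 1814 (6.31%) differed between XY FOXL2+ gonads and ovaries at an adjusted p under 0.05 (limma, with Benjamini-Hochberg adjustment over all 65956 transcript clusters of the array). They split evenly, with 916 genes higher (3.19%) and 898 lower (3.12%) in XY FOXL2+. At least 2-fold differences that also passed the test numbered 239 higher (0.831%) and 163 lower (0.567%). Without regard to the test, the 4 arrays of each group did not overlap at 7.82% of autosomal genes for higher and 6.16% for lower values, and over all clusters at 6.63% and 4.82%. The median difference over all autosomal genes was 0.033 on the log2 scale. With each array centred on its own median, 726 genes were higher and 1070 lower, so that 40.4% of the called genes were higher, against 50.5% as deposited.

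The 4 transgenic gonads were not equally far from the ovary. XY FOXL2+ replicate 2 was at least 2-fold from the mean of the XX controls at 142 genes above and 58 below it, or 0.696% of autosomal genes. Replicates 1, 3 and 4 were that far at 2.89%, 2.8% and 2.98%. The XY control arrays lay between 4.58% and 5.1%, and XX control arrays, each set against the other 3, between 0.0174% and 0.073%. Replicate 2 was the transgenic array nearest the ovary at 640 of the 916 higher genes and at 616 of the 898 lower genes, counts that describe genes called with this array included. Without it, 1491 genes were higher and 1664 lower. Without XY FOXL2+ replicate 4 the counts were 514 and 496, and without replicate 3 they were 549 and 519. Leaving out XX control replicate 2, 3 or 4 gave 511, 513 and 570 higher and 498, 554 and 547 lower. Counts of list members without XY FOXL2+ replicate 2, given below, are to be read beside the 1491 and 1664 genes called then.

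**Figure D1:**
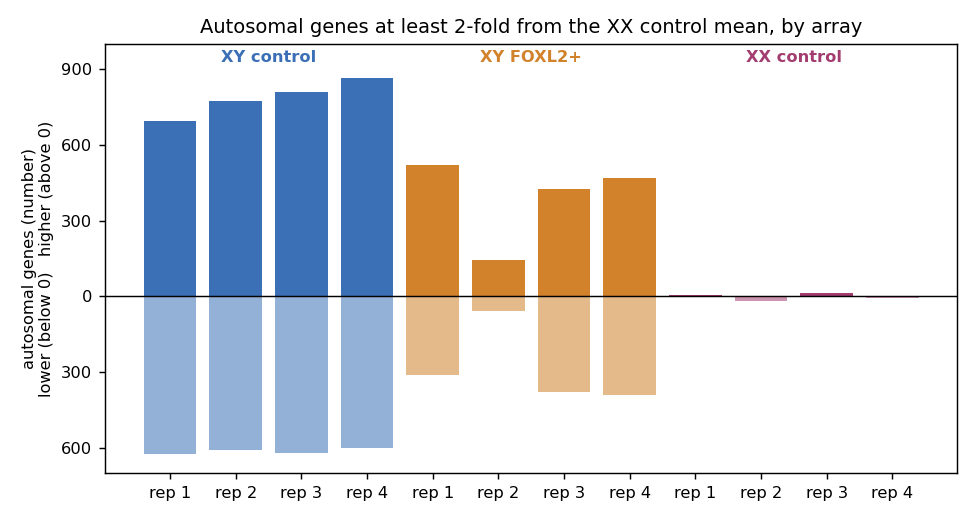
Number of autosomal genes (y axis) at least 2-fold above (dark bars, up) or below (pale bars, down) the mean of the XX controls on each of the 12 arrays; an XX control array is compared with the mean of the other 3. XY FOXL2+ replicate 2, with 142 genes above and 58 below, stands nearer to the ovary than the other 3 transgenic arrays.

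The mean of the XY controls, which share the XX arrays as their reference, is set beside these genes without a test. At 524 of the 916 higher genes the XY control mean lay at or beyond the XY FOXL2+ mean, at 336 it lay between XY FOXL2+ and the ovary, and at 56 it lay at or past the XX control level on the other side. For the 898 lower genes the counts were 586, 249 and 63.

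Foxl2 itself was not distinguishable between the groups. It read 7.67, 8.62, 7.18 and 6.72 in XY FOXL2+ and 8.08, 7.30, 7.14 and 7.39 in XX controls, so the groups overlapped, and replicate 2 had the highest and replicate 4 the lowest value of the 8. The difference was 0.07 ± 0.33 (SE), with a 95% confidence interval of -0.64 to 0.78, an adjusted p of 0.943 in limma and a two-sided exact permutation p of 0.9143 over 70 assignments, whose smallest possible p is 0.0286. XY controls averaged 5.35. The sign turned without XY FOXL2+ replicate 2 (-0.29) or XX control replicate 3 (-0.04). The sources used here do not say whether these probes detect the transgene's transcript, that of the endogenous gene, or both.

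**Figure D2:**
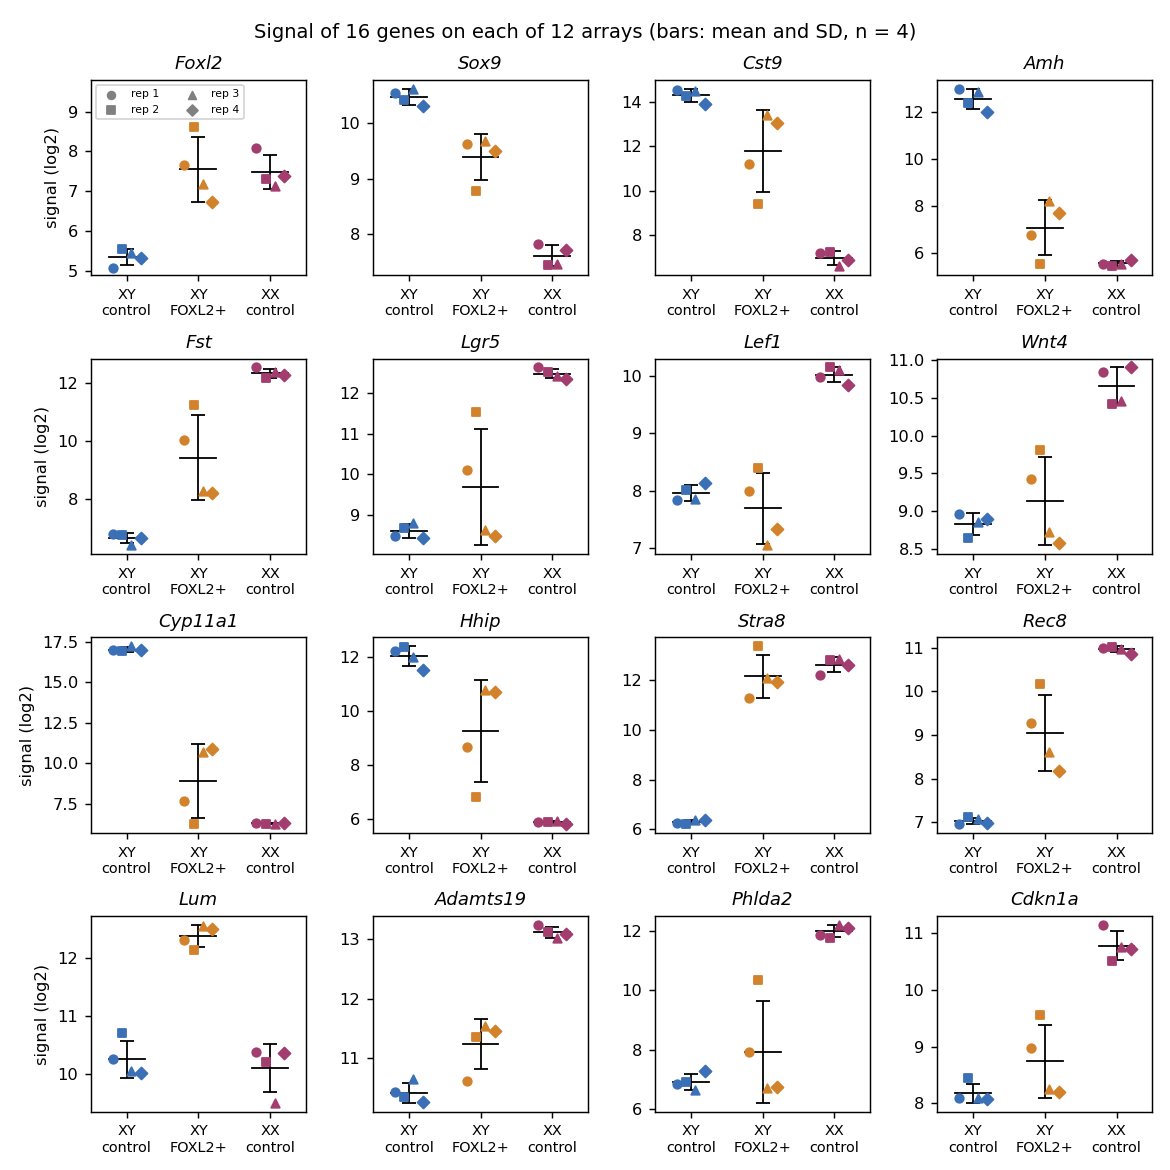
Signal (y axis, log2) of 16 genes on the 12 arrays, by group; each symbol is 1 array, with the replicate number given by its shape, and bars show mean and SD (n = 4). Foxl2 overlaps between XY FOXL2+ and XX control, whereas Sox9, Cst9 and Hhip lie above and Fst, Lgr5 and Lef1 below the ovary on every XY FOXL2+ array.

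The gene furthest above the ovary was Cst9, a cystatin made by Sertoli cells. It read 11.21, 9.41, 13.40 and 13.04 in XY FOXL2+ against 6.60 to 7.24 in XX controls (4.79 ± 0.65, adjusted p = 0.00122). Vcan, which encodes the matrix proteoglycan versican, read 12.99, 11.74, 14.03 and 14.10 against 9.34 to 9.95 (3.60 ± 0.40, adjusted p = 0.000359). Both genes were clear of the ovary on all 4 transgenic arrays, with replicate 2 the lowest. Robo2, a receptor for the guidance cue SLIT, read 11.40, 9.94, 12.65 and 12.64 against 8.36 to 8.51 (3.22 ± 0.45, adjusted p = 0.00141). Nrg1, an ERBB receptor ligand, differed by 3.22 ± 0.42 and Mmd2 by 3.06 ± 0.37, with adjusted p of 0.000908 and 0.000581. Also among the 15 genes furthest above the ovary were the tight junction gene Cldn1 (2.96), the muscle LIM-domain gene Pdlim3 (2.95), the hyaluronan-associated Itih5 (2.80), and Cstdc1 (2.62), all with adjusted p between 5.02e-05 and 0.00954.

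A few of these genes were above both kinds of control. Thbs1, which encodes the matrix glycoprotein thrombospondin 1, read 13.39, 12.78, 14.20 and 13.88 in XY FOXL2+, 10.34 to 11.34 in XX controls and 10.19 on average in XY controls, and differed from the ovary by 2.87 ± 0.30 (adjusted p = 0.000227). Gm4788 read 11.01, 10.63, 11.98 and 11.95 against 7.99 to 8.86, with an XY control mean of 7.55 (2.92 ± 0.35, adjusted p = 0.000561). Vcam1, an adhesion molecule, read 9.37, 8.02, 10.14 and 9.89 against 6.38 to 6.71 and 7.83 (2.81 ± 0.34, adjusted p = 0.000639). Thbs1, Gm4788 and Vcam1 thus stood above the means of both controls on all 4 arrays, Vcam1 narrowly so on replicate 2. In the same fit, XY FOXL2+ exceeded XY control by 3.37 for Thbs1, 3.85 for Gm4788 and 1.52 for Vcam1 (adjusted p = 1.74e-05, 2.01e-05 and 0.0158).

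On the lower side the furthest gene was Phlda2, an imprinted growth-restraining gene, which read 7.92, 10.35, 6.69 and 6.72 in XY FOXL2+ and 11.77 to 12.20 in XX controls, 16.7-fold lower (-4.07 ± 0.60, adjusted p = 0.00213). Replicates 3 and 4 were near the XY control mean of 6.92, and replicate 2 was the nearest to the ovary. Rmst, a long noncoding RNA, read 10.16, 10.99, 8.77 and 8.87 against 12.11 to 12.68 (-2.69 ± 0.41, adjusted p = 0.00227). The calcium channel gene Ryr2 (-2.59), Insyn2b (-2.58), the aminopeptidase gene Anpep (-2.50), Ablim3 (-2.45), Pld5 (-2.36), Igfbp2 (-2.27), which binds insulin-like growth factors, and the dynein gene Dnah8 (-2.26) were also lower, with adjusted p between 2.51e-05 and 0.00629. Of these, Ryr2 did not pass without XY FOXL2+ replicates 3 and 4 (-1.72, adjusted p = 0.0509). Tnfrsf19, a receptor of the TNF family, read 11.29, 12.10, 8.78 and 8.38 against 12.62 to 12.93, with replicates 3 and 4 far below the ovary and replicates 1 and 2 nearer to it. Its difference of -2.57 ± 0.64 had an adjusted p of 0.0352, which rose to between 0.0801 and 0.0972 without any 1 of the XX control arrays or of XY FOXL2+ replicates 3 and 4, and to between 0.0513 and 0.0516 without XY control replicate 1, 3 or 4.

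Niban1 and Bst2 were below both controls. Niban1 read 8.23, 8.99, 7.15 and 7.15 in XY FOXL2+, 10.39 to 10.52 in XX controls and 11.33 on average in XY controls (-2.57 ± 0.32 from the ovary, adjusted p = 0.000798). Bst2, an antiviral membrane protein gene, read 10, 10.99, 11.12 and 11.27 against 12.53 to 13.58 and 12.56 (-2.25 ± 0.30, adjusted p = 0.000984). Against XY controls the differences were -3.45 and -1.71 (adjusted p = 2.83e-05 and 0.00341).

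**Figure D3:**
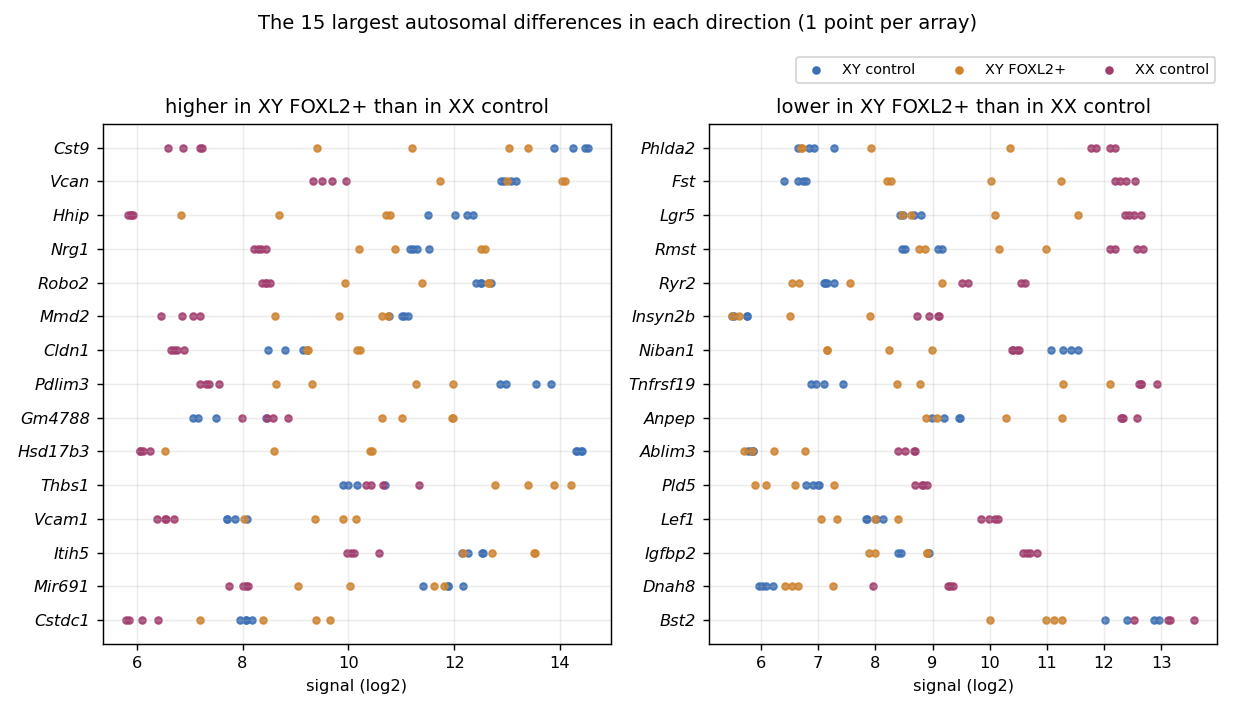
The 15 autosomal genes with the largest differences in each direction whose 4 XY FOXL2+ and 4 XX control arrays did not overlap; each point is 1 array (x axis, log2 signal), coloured by group. Thbs1 and Gm4788 lie above both controls in XY FOXL2+, and Niban1 and Bst2 below both.

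One of the 15 genes furthest above the ovary was a microRNA gene, Mir691, which read 10.03, 9.04, 11.61 and 11.80 against 7.75 to 8.11 (2.64 ± 0.47, adjusted p = 0.00615). In RefSeq (GRCm38.p6) the mature microRNA lies at chr16:74342005-74342026 on the minus strand, within Robo2, which is on the same strand. Signal from the microRNA precursor and from Robo2 transcripts cannot be told apart here. The mature sequence is shown because it is the only small RNA among the genes named, with the seed (bases 2 to 8) in capitals.
mmu-miR-691: aUUCCUGAagagaggcagaaaa

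Promoters of the genes named were searched for short motifs of factors that act in gonads. A window from 250 bases before to 50 after a start was found in RefSeq (GRCm38.p6) for 58 of 79 genes, some with several windows. The motifs, each of 7 letters on both strands, were GTAAACA (forkhead), AAGGTCA (NR5A1), ATCAAAG (TCF/LEF), CCACCCA (GLI) and ACAATGG (SOX), and they occurred in 3.65%, 4.72%, 3.73%, 9.3% and 3.66% of 32851 windows. Among 19 genes called higher, 1, 0, 2, 2 and 0 held them in the same order, and among 19 called lower, 0, 0, 1, 2 and 0. These are counts of genes, each counted if any of its windows matched, whereas the percentages are of single windows. The counts are small and a match is a description of letters, not of a binding site. Shown as examples are the window of Vcan, the gene furthest above the ovary after Cst9, at chr13:89742463-89742762 on the minus strand, with the GLI letters in capitals on the opposite strand, and a window of Tnfrsf19 at chr14:61037938-61038237 on the minus strand, with the TCF/LEF letters in capitals.
Vcan: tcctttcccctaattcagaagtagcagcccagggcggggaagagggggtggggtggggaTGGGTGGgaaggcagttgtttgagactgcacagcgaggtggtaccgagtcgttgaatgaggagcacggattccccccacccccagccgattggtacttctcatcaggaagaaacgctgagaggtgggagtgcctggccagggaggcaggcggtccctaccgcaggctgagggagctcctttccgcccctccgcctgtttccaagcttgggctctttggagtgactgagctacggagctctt
Tnfrsf19: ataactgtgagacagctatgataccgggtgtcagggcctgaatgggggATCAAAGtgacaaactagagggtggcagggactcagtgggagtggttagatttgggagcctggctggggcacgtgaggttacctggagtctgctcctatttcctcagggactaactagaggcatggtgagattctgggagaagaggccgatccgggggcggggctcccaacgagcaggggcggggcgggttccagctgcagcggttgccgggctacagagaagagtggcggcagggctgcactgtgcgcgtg

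Of 23 measured genes of the Sertoli list, 11 were higher and none was lower at an adjusted p under 0.05, and their median difference was 1.02, beside 1.94 for XY control minus XX control. Sox9, the transcription factor that directs Sertoli fate, read 9.63, 8.77, 9.67 and 9.49 against 7.44 to 7.83 and was 3.43-fold higher (1.78 ± 0.18, adjusted p = 0.000188), with an XY control mean of 10.47. Dhh, the hedgehog ligand of Sertoli cells, read 8.07, 6.85, 8.96 and 8.74 against 5.41 to 6.15 (2.37 ± 0.35, adjusted p = 0.0022). Fgf9, a growth factor of the testis pathway, read 8.35, 8.09, 7.96 and 7.85 against 7.10 to 7.49 (0.77 ± 0.12, adjusted p = 0.00237), and its XY control mean was 7.90. On all 4 transgenic arrays these 3 genes were above every ovary. Aard (1.13, adjusted p = 0.00533), Tesc (1.03, adjusted p = 0.0147) and Cst9 also kept their calls when any 1 array was left out. Without XY FOXL2+ replicates 3 and 4, however, those of Aard and Tesc ended (adjusted p = 0.0613 and 0.093), and Tesc did not pass in a fit of the arrays of these groups alone (0.0627). Of the list 4 members were higher without replicates 3 and 4, and 5 in that fit, beside 540 and 472 higher genes over all autosomal genes.

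Several defining genes of the Sertoli cell did not pass the test. Amh, the hormone that regresses the Müllerian duct, read 6.76, 5.54, 8.21 and 7.71 against 5.43 to 5.69, with an XY control mean of 12.54 and a difference of 1.51 ± 0.44 (adjusted p = 0.0659). Replicate 2 lay within the ovarian range, and even replicate 3, the highest, was far below the testis. Ptgds, the prostaglandin D synthase, differed by 1.13, adjusted p = 0.0743, Sox8 by 0.65, adjusted p = 0.102 and Dmrt1 by 0.05, adjusted p = 0.931. With XY FOXL2+ replicate 2 left out Amh (2.02, adjusted p = 0.00122), Ptgds (1.49, adjusted p = 0.00303) and Sox8 (0.86, adjusted p = 0.0102) passed. They also passed with array weights, which is not a separate check, since replicate 2 then counts less. The weights were 0.30 and 0.51 for XY FOXL2+ replicates 1 and 2, and 1.12 and 1.18 for replicates 3 and 4. With all arrays kept and 1 weight per group, a setting chosen after the data were seen, Amh (1.51, adjusted p = 0.0389) and Ptgds (1.13, 0.0393) passed as well. Amh also passed with a filter on low signal (0.0475). Hsd17b3, which makes testosterone from androstenedione, read 8.60, 6.54, 10.41 and 10.45 against 6.06 to 6.26 and 14.36 in XY controls. Its difference of 2.87 ± 0.64 had an adjusted p of 0.02, which rose to between 0.05 and 0.0623 without any 1 XX control array or XY FOXL2+ replicate 3 or 4. The calls of Clu, Defb19, Col9a3 and Erbb4 also ended there (up to 0.0855, 0.132, 0.121 and 0.0874), except Clu without XX control replicate 1. Defb19 was also lost without any 1 XY control array (up to 0.0649) and Col9a3 without XY control replicate 1, 2 or 3 (up to 0.0588). The list held 17 higher members and 1 lower without XY FOXL2+ replicate 2, beside 1491 and 1664 over all autosomal genes. It held 7 higher without XX control replicate 1, and 6 without XX control replicate 2, 3 or 4 or XY FOXL2+ replicate 3 or 4.

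Of 16 measured granulosa cell genes of the fetal ovary 10 were lower and none higher, and the median difference was -1.05, beside -2.29 for XY control minus XX control. Fst, which encodes the activin-binding protein follistatin, read 10.03, 11.24, 8.27 and 8.21 against 12.20 to 12.55, 7.56-fold lower (-2.92 ± 0.51, adjusted p = 0.00561), with an XY control mean of 6.64. Lgr5, a receptor for R-spondins, read 10.10, 11.55, 8.63 and 8.47 against 12.36 to 12.64 (-2.80 ± 0.50, adjusted p = 0.00648), and on replicates 3 and 4 it was at the XY control mean of 8.60. Adamts19, a protease gene of the ovary, read 10.61, 11.35, 11.54 and 11.46 against 13.03 to 13.24 (-1.88 ± 0.17, adjusted p = 0.000113). For Adamts19 it was replicate 1, not 3 or 4, that lay furthest from the ovary. Runx1 (-1.46, adjusted p = 0.00562), a factor that maintains fetal granulosa identity, and Bmp2 (-1.08, adjusted p = 0.000188) were lower too.

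Rspo1, which starts beta-catenin signalling in the ovary, read 11.14, 12.35, 9.60 and 9.66 against 12.31 to 12.51. Replicate 2 was within the ovarian range and replicates 3 and 4 near the XY control mean of 9.39, and the difference was -1.72 ± 0.46 (adjusted p = 0.0483). Kitl, the ligand of the KIT receptor, read 13.91, 14.47, 12.29 and 12.02 against 14.64 to 15.03 (-1.59 ± 0.42, adjusted p = 0.0469). Cdkn1b, a brake on the cell cycle, differed by -0.88 ± 0.23 (adjusted p = 0.0432). All 3 calls ended without any 1 of the XX or XY control arrays or of XY FOXL2+ replicates 3 and 4 (up to 0.136, 0.124 and 0.118). Cdkn1b lost its call also without replicate 1 (0.05). Irx3 (-0.99, adjusted p = 0.114), Irx5 (-0.33, adjusted p = 0.211) and Kctd14 (-1.03, adjusted p = 0.183) did not pass. Irx3 passed without XY FOXL2+ replicate 1 (-1.22, adjusted p = 0.0459) or replicate 2 (-1.29, 0.0167). It also passed with array weights (-1.35, 0.00522), which count replicates 1 and 2 less than replicates 3 and 4. The list held 12 lower members without replicate 2, and 7 without replicate 3, replicate 4 or both.

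Of 15 measured WNT ligands and targets 8 were lower and none higher (median -0.35). Lef1, a transcription factor that beta-catenin binds and induces, read 7.99, 8.40, 7.05 and 7.33 against 9.84 to 10.14, and replicates 3 and 4 were below the XY control mean of 7.95 (-2.32 ± 0.23, adjusted p = 0.000181). The feedback inhibitor Axin2 read 9.02, 9.41, 8.64 and 8.51 against 10.26 to 10.51 (-1.5 ± 0.16, adjusted p = 0.000267), and Nkd1, another such inhibitor, differed by -0.88, adjusted p = 0.00423. Wnt4, the ligand of the ovarian pathway, read 9.42, 9.81, 8.72 and 8.58 against 10.42 to 10.90 (-1.52 ± 0.23, adjusted p = 0.00244), with replicates 3 and 4 below the XY control mean of 8.83. Lef1, Axin2, Nkd1, Wnt4 and Lgr5 kept their calls without any 1 array. Those of Notum (-0.35) and Wnt9a (-0.29) did not (up to 0.114 and 0.141). Both ended without XX control replicates 1 to 3, XY FOXL2+ replicates 1, 3 or 4 or XY control replicate 3, and Wnt9a also without XX control replicate 4 or XY control replicate 2 or 4. The count was 10 lower and 1 higher without XY FOXL2+ replicate 2. In all, 5 members were lower without XX control replicate 1, 2 or 3, XY FOXL2+ replicate 3 or 4 or XY control replicate 3.

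BMP genes were mixed. Of 17 measured, 5 were lower and 1 higher, with a median difference of 0 to the precision printed, and 5 were lower whichever 1 array was left out. Msx1, a homeobox gene of the ovary induced by BMP signals, read 6.28, 6.80, 5.79 and 5.63 against 7.52 to 7.67 (-1.47 ± 0.20, adjusted p = 0.00124), and Msx2 differed by -1.02, adjusted p = 0.00954. Id1, a BMP target, was lower (-0.80 ± 0.13, adjusted p = 0.00331), and Bmp7 differed by -0.64, adjusted p = 0.0127, which rose to 0.0522 in the fit of these groups alone and to 0.0927 without XY FOXL2+ replicates 3 and 4. Bmp4 was the member that rose, from 7.07 to 7.47 in XX controls to 8.43, 7.70, 8.47 and 8.51 in XY FOXL2+ (1.03 ± 0.17, adjusted p = 0.00349). Without XY FOXL2+ replicate 2 there were 4 higher members and without replicate 1 there were 2.

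**Figure D4:**
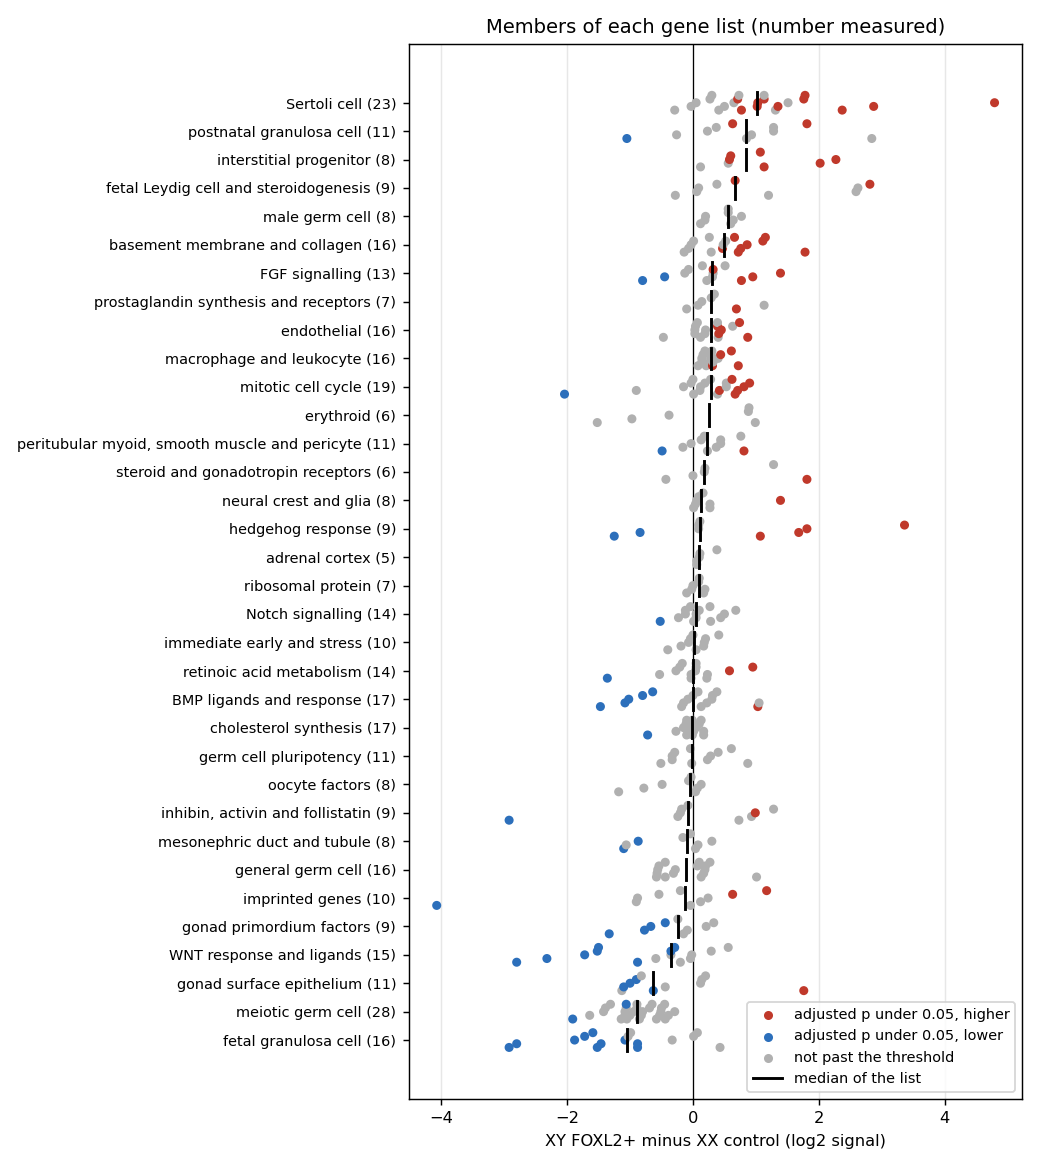
Difference between XY FOXL2+ and XX control (x axis, log2 signal) for the members of 34 gene lists, with the number measured after each name; red and blue points passed the test as higher or lower, grey points did not, and black bars are list medians. Sertoli, postnatal granulosa and interstitial genes lie to the right, with medians of 1.02, 0.85 and 0.84. Fetal granulosa and meiotic genes lie to the left, at -1.05 and -0.89. Without XY FOXL2+ replicates 3 and 4 the Sertoli, postnatal granulosa and interstitial medians were 0.49, 0.28 and 0.57. The fetal granulosa and meiotic medians were then -0.61 and -0.93.

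Of 11 measured genes known mainly from granulosa cells after birth, 2 were higher and 1 lower, with a median difference of 0.85. Esr2, estrogen receptor beta, read 6.97, 6.44, 9.15 and 8.99 against 5.96 to 6.17, and replicates 1, 3 and 4 were above the XY control mean of 6.80 as well (1.81 ± 0.48, adjusted p = 0.0467). Hsd17b1, which converts estrone to estradiol, read 8.0, 6.44, 11.42 and 11.33 against 6.30 to 6.64, and its difference of 2.84 ± 0.88 did not pass (adjusted p = 0.0881). Nr5a2, a nuclear receptor, was higher by 0.63 ± 0.10 (adjusted p = 0.00366), and Amhr2, the AMH receptor, differed by -1.05, adjusted p = 0.0258. Without XY FOXL2+ replicate 2 there were 8 higher members and without replicate 1 there were 4. Leaving out any other array left 1, since the call of Esr2 ended (adjusted p up to 0.131), and that of Amhr2 ended without any 1 XX control array or XY FOXL2+ replicate 3 or 4 (up to 0.079). In the inhibin and activin list Tgfbr3, the inhibin co-receptor, was higher (0.99, adjusted p = 0.00437), Fst was lower, and Inha (0.93, adjusted p = 0.108), Inhba (1.28, adjusted p = 0.12) and Inhbb (0.73, adjusted p = 0.201) did not pass. Inha passed without XY FOXL2+ replicate 1 (1.18, 0.0281) or 2 (1.16, 0.0291). That list held 4 higher members without XY FOXL2+ replicate 2 and 2 without replicate 1.

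Of 9 measured factors of the gonad primordium, 4 were lower and none higher. Nr5a1, which encodes SF1 and whose regulatory sequence drives the Cre, read 11.71, 11.60, 11.79 and 11.73 against 12.11 to 12.17, a tight and non-overlapping difference of -0.44 ± 0.08 (adjusted p = 0.00532), while XY controls averaged 13.39. The homeobox gene Lhx9 read 11.45, 11.11, 10.92 and 11.05 against 11.75 to 11.93 (-0.67 ± 0.11, adjusted p = 0.00345). Nr5a1 and Lhx9 were below both control means. Wt1 (-0.77, adjusted p = 0.0285) and Emx2 (-1.33, adjusted p = 0.0308) were lower chiefly on replicates 3 and 4, and their calls ended without any 1 XX control array or either of those replicates (up to 0.0868 and 0.0941), which left 2 lower members. Gata4, a factor of somatic gonad cells, differed by -0.15, adjusted p = 0.325.

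Of 9 measured genes of the fetal Leydig cell and of steroidogenesis, 2 were higher and none lower, and the median difference of 0.67 stood beside 3.28 for XY control minus XX control. Cyp11a1, the enzyme that starts steroid synthesis from cholesterol, read 7.69, 6.26, 10.68 and 10.92 against 6.27 to 6.32 and 17.03 on average in XY controls. Cyp17a1, needed for androgens, read 9.57, 8.39, 13.52 and 13.54 against 8.50 to 8.79 and 18.15. For both, replicates 3 and 4 were high, replicate 2 was at or below the ovary, and no array reached the testis. The differences of 2.59 ± 0.79 and 2.62 ± 0.92 did not pass (adjusted p = 0.0817 and 0.134), but passed without replicate 2 (3.46 and 3.58, adjusted p = 0.00261 and 0.00907). Cyp11a1 also passed with all arrays kept and 1 weight per group (2.59, adjusted p = 0.0402). Hsd3b1, another enzyme of steroid synthesis, read 9.47, 9.66, 11.94 and 11.97 against 9.33 to 9.97, again high only on replicates 3 and 4 (difference 1.20, adjusted p = 0.207), and it passed without replicate 1 (1.63, 0.049).

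The 2 members called were Vcam1, described above, and Star, the cholesterol carrier of mitochondria, which read 7.90, 7.34, 8.22 and 8.26 against 7.14 to 7.40 and 14.31 in XY controls (0.67 ± 0.18, adjusted p = 0.0489). The call of Star ended without any 1 array other than XY FOXL2+ replicate 2 (up to 0.143). The list held 1 higher member without any 1 control array or XY FOXL2+ replicate 3 or 4, and 5 without XY FOXL2+ replicate 2. Cholesterol synthesis genes had a median difference of -0.02 over 17 genes, beside 1.61 for XY control minus XX control. Only Hmgcs1, an early enzyme of that pathway, was called, and it was lower (-0.72, adjusted p = 0.0197), except without XX control replicate 2 or XY FOXL2+ replicate 3 or 4 (up to 0.0687). Of 5 adrenal cortex genes none was called by limma, and 0 had an unadjusted p under 0.05. Cyp11b1 read 5.24, 5.24, 5.30 and 5.29 against 5.13 to 5.19.

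Of 9 measured genes of the hedgehog response 4 were higher and 2 lower, with a median difference of 0.11, counts that did not move when any 1 array was left out. Hhip, a hedgehog-binding inhibitor induced by the pathway, read 8.69, 6.83, 10.78 and 10.72 against 5.83 to 5.93, a difference of 3.36 ± 0.66 (adjusted p = 0.0106). Ptch1, the receptor and also a target, read 11.89, 11.38, 13.05 and 12.90 against 10.39 to 10.55 (1.81 ± 0.29, adjusted p = 0.00297). Gli1, a target and effector, read 8.53, 7.83, 9.54 and 9.67 against 7.14 to 7.26 (1.68 ± 0.31, adjusted p = 0.00697). All 3 were lowest on replicate 2 and highest on 3 and 4, as was Dhh. Gli2 was also higher (1.07, adjusted p = 0.00443). The co-receptors Boc and Cdon were lower: Boc read 11.13, 11.47, 10.86 and 11.08 against 12.17 to 12.67 (-1.25 ± 0.13, adjusted p = 0.000244), and Cdon differed by -0.84, adjusted p = 0.000188. For Cdon all 4 XY FOXL2+ values were below both control means, 12.73 in XY controls among them.

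All 28 meiotic genes had a negative difference, with a median of -0.89 beside -2.89 for XY control minus XX control, but only 2 were called lower and none higher. Stra8, a gene required for meiotic entry, read 11.27, 13.34, 12.06 and 11.91 against 12.18 to 12.84, while XY controls averaged 6.31 (difference from the ovary -0.45 ± 0.32, adjusted p = 0.51). Replicate 2 was above every ovary and replicates 1, 3 and 4 below every one. With replicate 2 left out the difference of Stra8 was -0.85, and it passed (adjusted p = 0.0159). The synaptonemal complex gene Sycp3 read 11.55, 14.15, 13.41 and 13.50 against 13.94 to 14.24 (-0.89, adjusted p = 0.296), and the recombinase gene Dmc1 read 10.10, 13.09, 11.58 and 11.47 against 12.52 to 12.82 (-1.14, adjusted p = 0.162). In both, replicate 1 was the lowest array and replicate 2 the highest.

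Rec8, a meiotic cohesin, was lower on every transgenic array: 9.27, 10.17, 8.60 and 8.17 against 10.86 to 11.02 (-1.91 ± 0.31, adjusted p = 0.00337). Here replicates 3 and 4 were further from the ovary than replicate 1. Msh4, a crossover factor, differed by -1.06 ± 0.25 (adjusted p = 0.0264), which rose to between 0.0601 and 0.0805 without XX control replicate 2, 3 or 4 or XY FOXL2+ replicate 3 or 4 and left 1 lower member. Meioc (-1.42, adjusted p = 0.052), which prolongs the meiotic programme, and M1ap (-1.64, adjusted p = 0.0569) did not pass, though Meioc did with quantile normalization (-1.41, 0.0471) or arrays centred on their medians (-1.47, 0.0447), and the list then held 3 and 4 lower genes. In all 24 of the 28 genes were lower without XY FOXL2+ replicate 2, with a median of -1.27. Lower calls over all autosomal genes then rose too, from 898 to 1664. The mean signal of the list was 9.24, 11.44, 10.30 and 10.23 on the transgenic arrays, against 11.11 to 11.31 in XX controls.

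The general germ cell list, which both sexes express, had list means of 8.72, 9.43, 9.38 and 9.66 against 9.19 to 9.54 in XX controls. Ddx4 read 13.47, 14.76, 14.19 and 14.42 against 14.51 to 14.95 and Dazl 13.85, 15.38, 14.83 and 14.90 against 15.15 to 15.47; neither passed (adjusted p = 0.205 and 0.239), though Dazl did without replicate 2 (-0.77, 0.0492). Replicate 1 was thus the lowest array in both germ cell lists, and the part of this in the meiotic values was not tested. No member of the general germ cell, pluripotency, oocyte or male germ cell lists was called by limma, and 4 of 16, 4 of 11, 2 of 8 and 3 of 8 had an unadjusted p under 0.05. The share of all autosomal genes under that unadjusted limit is not given here, but it is at least the 6.31% called after adjustment. Pou5f1, a pluripotency factor, differed by 0.23, adjusted p = 0.724, Figla, an oocyte transcription factor, by -0.78, adjusted p = 0.123 (-1.12 and 0.000535 without replicate 2) and Dnmt3l, which acts in male germ cells, by 0.12, adjusted p = 0.793. Nanos2, which marks male germ cells, read 5.51, 5.61, 6.43 and 6.82 against 5.24 to 5.74 and 7.44 on average in XY controls (0.64, adjusted p = 0.24), and Piwil4 6.58, 6.94, 7.57 and 8.38 against 6.47 to 6.72 (0.77, adjusted p = 0.561). Without XY FOXL2+ replicate 2, 3 male germ cell genes were higher and 2 oocyte genes lower, with 1 higher and 1 lower general germ cell gene and 1 higher and 2 lower pluripotency genes. The pluripotency list also held 1 lower gene without XX control replicate 1 or XY FOXL2+ replicate 1 and 1 higher without XX control replicate 3, and the oocyte list 1 lower without XY control replicate 2.

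Genes that set retinoic acid levels gave 2 higher and 1 lower call, with a median difference of 0 to the precision printed over 14 genes. Cyp26b1, which degrades retinoic acid in the fetal testis, read 7.71, 7.06, 8.32 and 8.36 against 6.70 to 7.12 and 10.07 in XY controls (0.95 ± 0.23, adjusted p = 0.0325), a call that ended without any 1 XX control array or XY FOXL2+ replicate 3 or 4 (up to 0.0994), leaving 1. Rarb, a receptor that retinoic acid induces, read 7.92, 7.93, 8.07 and 7.98 against 7.32 to 7.51, also above the XY control mean of 6.99 (0.58 ± 0.08, adjusted p = 0.00114). Crabp1, a retinoic acid binding protein, was lower (-1.36, adjusted p = 0.0108, but 0.0527 in the fit of these groups alone), and Aldh1a1, which makes retinoic acid, differed by 0.23, adjusted p = 0.299. The list held 2 lower genes without XY FOXL2+ replicate 2.

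Of 8 measured interstitial progenitor genes, 6 were higher, with a median of 0.84, and between 5 and 7 were called when any 1 array was left out. Dcn, the collagen-binding proteoglycan decorin, read 14.89, 14.89, 15.33 and 15.54 against 12.81 to 13.40 (2.02 ± 0.16, adjusted p = 3.96e-05). Lum, the related lumican, read 12.31, 12.13, 12.55 and 12.50 against 9.5 to 10.37, 4.81-fold higher (2.27 ± 0.20, adjusted p = 9.88e-05). On replicate 2 Lum was at nearly the level of the other transgenic arrays, and both genes exceeded the XY control means of 14.58 and 10.25. Nr2f2, a nuclear receptor of steroidogenic progenitors, was higher by 1.07 ± 0.17 (adjusted p = 0.00302), Tcf21 by 1.13 ± 0.23 (0.0127) and Nr2f1 by 0.58 ± 0.12 (0.0123). Without XY FOXL2+ replicates 3 and 4 there were 3 higher members, as Tcf21 (0.113), Nr2f1 (0.117) and Maf were lost. Maf differed by 0.60, adjusted p = 0.0404, and its call ended without any 1 XX control array or XY FOXL2+ replicate 1, 3 or 4 (up to 0.121).

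Basement membrane and collagen genes gave 8 higher and no lower calls among 16 (median 0.50). Nid1, a linker of laminin and collagen IV, read 13.38, 13.15, 14.13 and 14.14 against 12.32 to 12.68 (1.15 ± 0.19, adjusted p = 0.0043). Col1a2, a chain of fibrillar collagen, read 13.60, 13.63, 14.47 and 14.37 against 12.46 to 13.17 (1.11 ± 0.20, adjusted p = 0.00679). Lama4 (0.86, adjusted p = 0.00574) and Nid2 (0.76, adjusted p = 0.00929) were higher too, and these 4 calls held without any 1 array. Lama2 was further from the ovary (1.78, adjusted p = 0.0184), yet its call and those of Lamb1, Col3a1 and Col4a1 ended without XY FOXL2+ replicate 3 or 4 (up to 0.0533, 0.121, 0.0607 and 0.132). All but that of Col3a1 also ended without XX control replicate 2 or 3 (Lama2 up to 0.0588, Lamb1 0.123, Col4a1 0.126). Those of Lamb1 and Col4a1 ended in addition without XX control replicate 4 or any 1 XY control array, Lamb1 without XX control replicate 1 and Col4a1 without XY FOXL2+ replicate 1. The list had 4 higher members without XY FOXL2+ replicate 3 or 4 and 5 without XX control replicate 2 or 3.

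Among FGF genes 4 of 13 were higher and 2 lower. Besides Fgf9, the feedback phosphatase Dusp6 read 9.34, 8.51, 9.56 and 9.60 against 7.69 to 8.14 (1.39 ± 0.21, adjusted p = 0.00236), and Etv5, a target of FGF signals, was higher (0.95, adjusted p = 0.00285). Fgfr2, the receptor through which FGF9 acts in the gonad, read 11.04, 11.08, 11.10 and 10.88 against 11.76 to 11.89 and was lower (-0.80 ± 0.10, adjusted p = 0.000798). Etv4 (0.32, adjusted p = 0.0477) and Fgfr3 (-0.45, adjusted p = 0.0146) were small calls that ended without some single arrays (up to 0.138 and 0.0546), the latter without XX control replicate 2 or XY FOXL2+ replicate 4, the former without any 1 array but XY FOXL2+ replicate 2 and XY control replicate 2. In the Notch list of 14 only Jag2 was called, and it was lower (-0.52, adjusted p = 0.0413), which ended without any 1 array other than XY FOXL2+ replicate 2 (up to 0.13). That list held 2 higher members without XY FOXL2+ replicate 1 and 3 without replicate 2. In the FGF list 1 member was lower without XX control replicate 2 or XY FOXL2+ replicate 4.

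Of 7 prostaglandin genes, Ptger2, a receptor of prostaglandin E, was higher (0.69, adjusted p = 0.00862, but 0.0708 without XY FOXL2+ replicates 3 and 4), and of 6 steroid and gonadotropin receptors only Esr2 was called, with the limits given above. There were 3 higher prostaglandin genes without XY FOXL2+ replicate 2, and 2 without replicate 3. There were 2 higher receptor genes without XY FOXL2+ replicate 1 or 2, and without replicate 4 there was 1 lower. Fshr, the receptor of follicle-stimulating hormone, read 5.78, 5.48, 7.39 and 7.68 against 5.15 to 5.55 (1.28, adjusted p = 0.103), with replicates 3 and 4 the highest. Peritubular myoid and smooth muscle genes gave 1 higher call, Mylk (0.81, adjusted p = 0.033), and 1 lower, Myh11 (-0.49, adjusted p = 0.0359), among 11. Both ended without several single arrays (up to 0.0999 and 0.0971), XX control replicates 1 to 4 and XY FOXL2+ replicates 3 and 4 among them, and Myh11 also without XY FOXL2+ replicate 2 or XY control replicate 3. The list had 3 higher members without XY FOXL2+ replicate 2. Acta2 differed by 0.76, adjusted p = 0.0928, and passed without that replicate (1.01, 0.00437).

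Markers of other cell types that the dissected gonad could hold also differed, and their part in the results above was not tested. Endothelial genes gave 5 higher and no lower calls among 16, with list means of 8.95 to 9.16 on XY FOXL2+ arrays and 8.65 to 8.87 in XX controls. Tek, the angiopoietin receptor, read 9.19, 9.01, 9.40 and 9.41 against 8.31 to 8.74 (0.74 ± 0.12, adjusted p = 0.00332), and the tight junction gene Cldn5 was higher (0.87, adjusted p = 0.00362), whereas Pecam1 differed by 0.04, adjusted p = 0.844 and Kdr by -0.47, adjusted p = 0.0609. The smaller calls of Cdh5, Tie1 and Erg ended without XX control replicate 3 or 4 or XY FOXL2+ replicate 3 or 4 (up to 0.082, 0.108 and 0.123), Cdh5 and Tie1 also without XX control replicate 2, Tie1 and Erg also without XY control replicate 1 or 3, and Erg also without XX control replicate 1, XY FOXL2+ replicate 1 or XY control replicate 4. There were 2 higher members without any 1 of XX control replicates 3 and 4 and XY FOXL2+ replicates 3 and 4, and 3 without XX control replicate 2 or XY control replicate 1 or 3. An endothelial gene was lower without XY FOXL2+ replicate 1 or 2. The counts were 2 higher and 1 lower with quantile normalization, and 3 and 0 with arrays centred on their medians.

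Macrophage and leukocyte genes gave 4 higher and no lower calls among 16, with list means of 7.02 to 7.18 on XY FOXL2+ arrays against 6.69 to 6.88. Ly86 was higher (0.72, adjusted p = 0.0133, but 0.0953 without XY FOXL2+ replicates 3 and 4, where the list had 0 calls), as were C1qb, Cd68 and Adgre1 (0.61, 0.44 and 0.31; adjusted p = 0.0442, 0.0382 and 0.0225). Median centring left 2 calls. One call was left without XX control replicate 2 or 3 or XY FOXL2+ replicate 3 or 4, and 2 were left without XY control replicate 1, 3 or 4. These 3 smaller calls ended with adjusted p up to 0.122, 0.119 and 0.0785, Cd68 without any 1 array but XX control replicate 1 and XY FOXL2+ replicate 1. C1qb ended without XX control replicates 1 to 3, XY FOXL2+ replicates 2 to 4 or XY control replicate 1, 3 or 4. Csf1r, the receptor that macrophages need, differed by 0.29, adjusted p = 0.0815. The general leukocyte marker Ptprc read 6.61, 6.18, 6.35 and 6.54 against 6.02 to 6.19 (0.32, adjusted p = 0.063).

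None of 6 erythroid genes was called by limma, and 2 had an unadjusted p under 0.05, but the arrays differed. Klf1, the erythroid transcription factor, read 10.43, 8.01, 6.69 and 6.47 against 6.35 to 7.56, and Slc4a1, a red cell membrane transporter, 11.09, 13, 9.56 and 8.15 against 8.86 to 10.23. Klf1 was highest on XY FOXL2+ replicate 1 and Slc4a1 on replicate 2, and replicates 3 and 4 were lower. The embryonic globin gene Hbb-y read 15.78, 15.42, 14.20 and 13.95 against 16.11 to 16.59 (-1.52, adjusted p = 0.0636) and passed without XY FOXL2+ replicate 1 (0.0232) or 2 (0.0401) or XY control replicate 2 (0.0465). The list held 2 lower members without XY FOXL2+ replicate 1 or XY control replicate 2 and 1 without XY FOXL2+ replicate 2. Without XY FOXL2+ replicates 3 and 4 it held 3 higher and 0 lower members with a median of 0.99, against 0.25 over all arrays, and Klf1 (2.31, adjusted p = 0.0416) and Slc4a1 (2.49, 0.0323) were higher there.

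Of 11 genes of the gonad surface epithelium 4 were lower and 1 higher, with a median difference of -0.63. Without XY FOXL2+ replicate 1 or replicate 2 there were 6 lower members. Without replicates 3 and 4 there were 3 lower and 2 higher, with a median of -0.17. Upk3b, an uroplakin of mesothelium, read 11.48, 11.09, 10.92 and 10.75 against 11.97 to 12.25 (-1.0 ± 0.16, adjusted p = 0.00275). The keratin gene Krt7 (-0.90, adjusted p = 0.00122) and the mucin gene Muc16 (-1.10, adjusted p = 0.00284) were lower as well. Lrrn4 was also lower (adjusted p = 0.0123), but not in the fit of these groups alone (0.0552) or without XY FOXL2+ replicates 3 and 4 (0.0528). Gpm6a, a membrane glycoprotein gene, went the other way: 9.99, 10.20, 9.76 and 9.66 against 8.01 to 8.24, above the XY control mean of 8.85 too (1.76 ± 0.12, adjusted p = 1.73e-05). Of 8 mesonephric genes 2 were lower, Ret (-1.10, adjusted p = 0.00391), and Pax8 (-0.87, adjusted p = 0.0159), the latter not without XX control replicate 4 (0.0533) or XY FOXL2+ replicate 4 (0.0532). Pax2, a defining gene of the mesonephric duct, read 4.81 to 4.92 on XY FOXL2+ arrays and 4.85 to 4.93 in XX controls. Of 8 neural crest genes Erbb3 was higher (1.39, adjusted p = 0.000196), with Sox10 at 0.27, adjusted p = 0.103.

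Mitotic genes gave 6 higher and 1 lower call among 19. Mki67, which marks dividing cells, read 16.11, 15.80, 15.58 and 15.49 against 15.01 to 15.28 (0.62 ± 0.12, adjusted p = 0.00879). Cdk1 (0.81, adjusted p = 0.00992), Aurkb (0.90, adjusted p = 0.00415) and Ccna2 (0.67, adjusted p = 0.0139, but 0.0627 in the fit of these groups alone), all needed for mitosis, were higher, with replicate 1 the highest array for each of these 4 genes. Cdkn1a, which encodes the cell cycle inhibitor p21, was the lower member, with 8.98, 9.56, 8.25 and 8.20 against 10.51 to 11.14 (-2.04 ± 0.26, adjusted p = 0.000798). Its values on replicates 3 and 4 were close to the XY control mean of 8.18. The replication genes Mcm2 to Mcm6 did not pass, the furthest being Mcm4 at 0.28, adjusted p = 0.423. Calls of Top2a (0.42) and Aurka (0.71) ended without any 1 of several arrays (up to 0.0725 and 0.129), XX control replicates 1, 2 and 4 and XY FOXL2+ replicates 3 and 4 for both, with XX control replicate 3 and each XY control array in addition for Aurka.

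Among 10 imprinted genes Phlda2 was lower and Plagl1, a zinc-finger gene, higher: 12.17, 12.36, 13 and 13.01 against 11.22 to 11.59 (1.17 ± 0.17, adjusted p = 0.0022). Grb10, an adaptor that restrains growth, was higher (0.63, adjusted p = 0.0159), but not without XX control replicate 3 (0.0572) or XY FOXL2+ replicate 3 (0.0521) or 4 (0.0553). Igf2 (-0.54, adjusted p = 0.118), Cdkn1c (-0.90, adjusted p = 0.188) and Peg3 (-0.88, adjusted p = 0.0577) did not pass. There were 4 lower imprinted genes without XY FOXL2+ replicate 2, and 2 without replicate 1. Neither the 10 immediate early and stress genes, with a median of 0.02, nor the 7 ribosomal protein genes, with a median of 0.09, held a call in limma, and 2 and 0 members had an unadjusted p under 0.05. Their differences lay between -0.40 and 0.41 and between -0.10 and 0.19.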

How the data were processed

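RNA of 12 single-embryo gonad pairs was measured on the Affymetrix Mouse Transcriptome Array 1.0, after amplifying 100 ng of RNA with the WT Plus kit per the labels' protocols. The deposited series matrix holds the authors' processed signal, which was read as log2. The file holds no statement of log base, background correction, normalization or genome build, each not given in the sources used here. Detection calls were not used here. Another log base would rescale every difference and leave the tests as they are. Of 72688 entries, 6732 control probe sets were left out, and 65956 transcript clusters, each the array's unit for 1 locus, were tested without a filter on low signal. The platform annotation names 31258 clusters with 1 symbol, 1492 with several, and does not list 33206, which are unnamed here. Symbols were updated through RefSeq (GRCm38.p6), which placed 28755 genes on chromosomes 1 to 19. A gene with several clusters (410 genes) was read from the one with the highest mean over all arrays.

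Groups were taken from the sample titles. One fit over 12 arrays with 3 group means was made in R 4.3.3 using the lmFit and eBayes functions of limma 3.58.1, with the variance trended on intensity and 9 degrees of freedom left for the spread. All tests are two-sided, adjusted by the Benjamini-Hochberg method, with a threshold of 0.05. Differences are XY FOXL2+ minus XX control with standard errors; at least 2-fold means a log2 difference of at least 1. The fit was also run on simulated data with independent noise and the same spread in every group. That run cannot show how the test behaves under the unequal spread of these groups. Alternatives covered array weights, normalization, variance models, a signal filter, the replicate number as a block and each array left out. The genes named are the 15 largest non-overlapping differences in each direction, preset key members of 34 lists (442 genes, 394 measured) and other called members. The comparison, the members and the lists were chosen with earlier results of these data known. Counts of list members at an unadjusted p under 0.05 are given without the share over all autosomal genes, so they have no background beside them. The number of arrays limits the precision.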

Additional observations from a re-analysis of the deposited data

Results flagged for a closer look

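A single array stood far from the other 3 of its group in 15 of 322 groups checked, over 161 genes, and chance alone gives about 5% of groups. In XX controls, replicate 1 stood apart for Amhr2 at 12.39, Anpep at 12.57, Kitl at 15.03 and Tnfrsf19 at 12.93, in each case above the other 3. XX control replicate 2 stood apart for Hmgcs1 at 14.30, Id1 at 11.95 and Lhx9 at 11.93, also above the others. XX control replicate 3 stood apart for Aurka at 10.72, above the others, and for Cdh5 at 12.92, Dnah8 at 7.96 and Ogn at 9.10, below them. In XY FOXL2+, replicate 1 stood apart above the others for Aurka at 11.87, Ccna2 at 13.71 and Cldn5 at 9.11. Replicate 2 stood apart below the others for Bmp4 at 7.70.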

How the results depend on the processing

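The number of autosomal genes called moved more than any direction. The 916 higher and 898 lower genes became 1651 and 1791 with array weights, and 472 and 460 in a fit of the 8 arrays of both groups alone. The array weights were lowest for XY FOXL2+ replicates 1 and 2. Leaving out 1 array gave 511 to 1491 higher, 496 to 1664 lower, 159 to 342 at least 2-fold higher and 110 to 294 at least 2-fold lower. With XY FOXL2+ replicates 3 and 4 both left out, 540 were higher, 338 lower and 61 at least 2-fold lower, against 163. The at least 2-fold lower genes numbered 255 with array weights. Fits with 1 weight per group, chosen after the data were seen, robust or untrended variances, quantile or median centring, a filter on low signal or a mean over the clusters of a gene kept all 4 counts within 1.5 times. The sources used here do not say whether the replicate numbers pair the embryos. Deviations of same-numbered XY FOXL2+ and XX control arrays correlated at 0.179, 0.015, 0.072 and 0.11. Those of differently numbered arrays of these groups correlated between -0.125 and 0.069, and pairing was not tested. With the replicate number as a block, 1532 genes were called, 758 higher and 774 lower.

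The sign of Foxl2 turned with array weights (-0.14) and without XX control replicate 3 (-0.04) or XY FOXL2+ replicate 2 (-0.29), in a range of -0.29 to 0.35 when 1 array was left out. Pecam1 turned with arrays centred on their medians (-0.01). Dmrt1 turned without XX control replicate 1 (-0.11), XY FOXL2+ replicate 2 (-0.01), replicate 4 (-0.04) or replicates 3 and 4 (-0.15), the last of which also turned Pou5f1 (-0.28). With 1 array left out Dmrt1 ranged from -0.11 to 0.24. No called gene of those named changed sign in any setting run. With quantile normalization the imprinted list held 2 lower genes, against 1, and the myoid list 0, against 1. The causes were not tested. Signal over background is unknown, so differences of genes with low signal are bounded only by the spread between arrays.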

Other observations

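Further genes, chosen after their values were seen, were higher in XY FOXL2+ gonads than in the ovary. The leucine-rich proteoglycan genes Ogn and Aspn, relatives of Dcn and Lum, differed by 2.21 and 2.09 on the log2 scale (adjusted p = 0.00658 and 0.000369 in limma). Tnc, which encodes the matrix glycoprotein tenascin C, read 10.66, 10.57, 10.90 and 10.65 in XY FOXL2+, 8.42 to 8.74 in XX controls and 9.10 on average in XY controls. Dpt, which encodes dermatopontin, read 7.14, 7.20, 8.67 and 8.74 against 5.77 to 6.14 and 6.20. Tnc and Dpt were thus above both controls on all 4 arrays. Nrp2 was higher by 1.90, Epha3 by 2.01, Efna5 by 2.08 and Robo1, the relative of Robo2, by 1.77, with adjusted p of 7.91e-05, 0.00226, 0.00963 and 0.00118. Nrp2 read 10.63, 10.25, 10.54 and 10.52 against 8.34 to 8.81 in XX controls, with an XY control mean of 8.60, so the transgenic arrays lay above both.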
